A study of Mus musculus with 18 samples.

Results

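The genes described here are 10 genes linked to arterial endothelium, Gkn3, Bmx, Efnb2, Sema3g, Vegfc, Mgp, Stmn2, Gja4, Gja5 and Fbln5, taken by symbol from the 21638 genes of the deposited table. All 10 were found, and all 10 passed the filter on low counts. Messenger RNA had been sequenced from endothelial cells of the adult mouse cortex, sorted for CD31 and against CD41 and CD45, and made into libraries with SMART-Seq v4 PLUS, a kit for very small inputs. The libraries formed 6 groups of 3. Sham mice and mice with middle cerebral artery occlusion (MCAO, a surgical stroke model), both labelled WT, each gave an ipsilateral group from the operated side and a contralateral group from the opposite side. Mice labelled Hdac2 ECKO and Ezh2 ECKO, also occluded, gave ipsilateral cells only. ECKO is an endothelial deletion, made from Hdac2lox/lox or Ezh2lox/lox alleles with Cdh5CreERT2, a recombinase that is driven by the Cdh5 promoter of endothelial cells and activated by tamoxifen. All 6 groups carry the label of tamoxifen at 75 mg per kg. The design text gives 5 doses from day 0 to day 4 for the deletions and harvest on day 7. The labels do not state age in weeks, sex or strain, nor whether libraries came from separate mice, so p-values measure only the spread between these libraries.

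Arterial identity in endothelium is set by VEGF and Notch signalling and maintained by flow, and it marks the vessels that feed the capillary bed. Ephrin-B2 on arterial cells and its receptor EphB4 on venous cells keep the vessel types apart. In the brain, Gkn3, Bmx, Sema3g and Vegfc are widely used markers of arteries and arterioles, while connexins join neighbouring arterial cells and Mgp and Fbln5 belong to the vessel matrix.

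Total counts per library ran from 25791401 to 57576255. The tested genes numbered 17094, and a level is given as CPM, the count scaled to library depth with TMM factors. As a check of the endothelial label, none of 12 pan-endothelial markers was at 0 in any library, and they summed to 12183 to 27389 CPM. Hdac2 did not fall in the libraries labelled Hdac2 ECKO (log2 fold change −0.11 ± 0.32 SE, adjusted p 0.925). Ezh2 did not fall in those labelled Ezh2 ECKO either (1.05 ± 0.86, adjusted p 0.485). These counts cover the whole gene, and the exons between the lox sites were not analysed, so whether those exons were lost was not tested. Both deletions are therefore named here only as labels, and any direction below belongs to the labels. MCAO contralateral replicate 1 and the library labelled Ezh2 ECKO replicate 2 stood apart, with median correlations to the other libraries, across genes, of 0.776 and 0.807. They also had the highest summed counts on 1464 olfactory and vomeronasal receptor genes, at 1883 and 2077 CPM, where the lowest library had 152.

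Gkn3, Bmx, Efnb2 and Vegfc were the 4 members whose levels in the libraries labelled Hdac2 ECKO lay above all MCAO ipsilateral libraries, and their promoters are shown to compare the sequence at their starts. RefSeq sequences on GRCm38.p6 were matched by symbol for 8 of the 10 members. Each runs 5′ to 3′ on the gene's own strand, from 250 bases before the RefSeq start site to 50 after it, with CpG dinucleotides in capitals. Bases after the start were found in GENCODE transcripts of Gkn3, Bmx, Efnb2, Sema3g and Gja4. They were not found for Vegfc, Gja5 or either promoter of Fbln5, so positions in these depend on the RefSeq start. The Vegfc window ends before the gene start of 54077606 used below.
Gkn3, chr6:87388886-87389185, minus strand: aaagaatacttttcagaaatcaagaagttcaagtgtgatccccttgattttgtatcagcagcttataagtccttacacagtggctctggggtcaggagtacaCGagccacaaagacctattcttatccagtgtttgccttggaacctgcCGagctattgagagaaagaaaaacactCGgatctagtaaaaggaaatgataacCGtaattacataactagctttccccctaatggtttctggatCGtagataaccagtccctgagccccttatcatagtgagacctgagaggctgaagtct
Bmx, chrX:164258144-164258443, minus strand: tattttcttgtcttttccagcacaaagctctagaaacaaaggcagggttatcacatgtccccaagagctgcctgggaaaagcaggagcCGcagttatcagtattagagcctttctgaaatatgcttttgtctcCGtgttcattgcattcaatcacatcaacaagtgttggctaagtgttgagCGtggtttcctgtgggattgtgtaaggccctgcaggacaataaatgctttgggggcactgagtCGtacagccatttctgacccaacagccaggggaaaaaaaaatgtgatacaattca
Efnb2, chr8:8661193-8661492, minus strand: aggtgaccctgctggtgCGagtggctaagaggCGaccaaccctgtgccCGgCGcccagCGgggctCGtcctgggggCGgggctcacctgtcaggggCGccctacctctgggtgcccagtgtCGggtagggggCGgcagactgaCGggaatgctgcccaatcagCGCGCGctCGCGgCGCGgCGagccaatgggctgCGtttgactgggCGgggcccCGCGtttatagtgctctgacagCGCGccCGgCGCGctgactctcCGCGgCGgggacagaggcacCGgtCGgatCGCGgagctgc
Vegfc, chr8:54077282-54077581, plus strand: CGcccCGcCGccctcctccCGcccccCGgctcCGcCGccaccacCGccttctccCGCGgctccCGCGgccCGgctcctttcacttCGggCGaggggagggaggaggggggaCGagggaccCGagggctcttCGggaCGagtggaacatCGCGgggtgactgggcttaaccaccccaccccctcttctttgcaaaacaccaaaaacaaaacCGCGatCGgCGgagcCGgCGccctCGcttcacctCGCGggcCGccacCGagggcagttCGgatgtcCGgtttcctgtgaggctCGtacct

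These promoters were of unlike kinds. Efnb2 and Vegfc each held 35 CpG dinucleotides in 300 bases, with G and C at 72.3% and 70.3% of bases. Gkn3 held 5 and Bmx 4, with G and C at 42.7% and 44.7%. The median over 32851 mouse promoters of this length was 7, with quartiles of 3 and 20. Sema3g held 8, Gja4 16 and Gja5 7, and the 2 promoters of Fbln5 held 8 and 24. Short motifs were searched on both strands, and no match overlapped another in these promoters. TGGGAA, the core of RBPJ sites through which Notch acts, was found once each in Bmx (178 bases before the start), Sema3g (30 after) and Fbln5 (153 before), and in 25.6% of all promoters. ACAAT, the core of SOX sites, was found 3 times in Bmx and once each in Gja4 and Fbln5, and in 31.0% of all promoters. TATAAA was found once in Efnb2, 30 bases before the start and on the opposite strand, and in 13.6% of all promoters, while CCGGAA, an ETS core held by 14.9%, was found in no member. A match describes the letters only.

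Levels between genes were compared as CPM per kilobase of exon, as mean ± SD over the 18 libraries. Gkn3, a secreted gastrokine family protein, was the most abundant at 417 ± 237, followed by Mgp at 154 ± 86.1. The order between these neighbours held in 17 of 18 libraries. Stmn2 (25.1 ± 11.3), Bmx (20 ± 9.23) and Vegfc (19.4 ± 7.87) came next and did not differ beyond their spread, with the order held in 11 and 10 libraries. Sema3g (11.8 ± 4.06) and Efnb2 (9.89 ± 3.52) were likewise close, with Sema3g above Efnb2 in 10 libraries. Gja4 (4.62 ± 3.53), Fbln5 (2.07 ± 1.10) and Gja5 (0.424 ± 0.331) were the lowest, and Fbln5 exceeded Gja5 in all 18. The level of Gkn3 lay at the 99.0 percentile of the tested genes and that of Gja5 at the 35.0 percentile. In bulk samples, fewer arterial cells and less RNA per cell cannot be told apart, and this touches every value below.

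**Figure D1:**
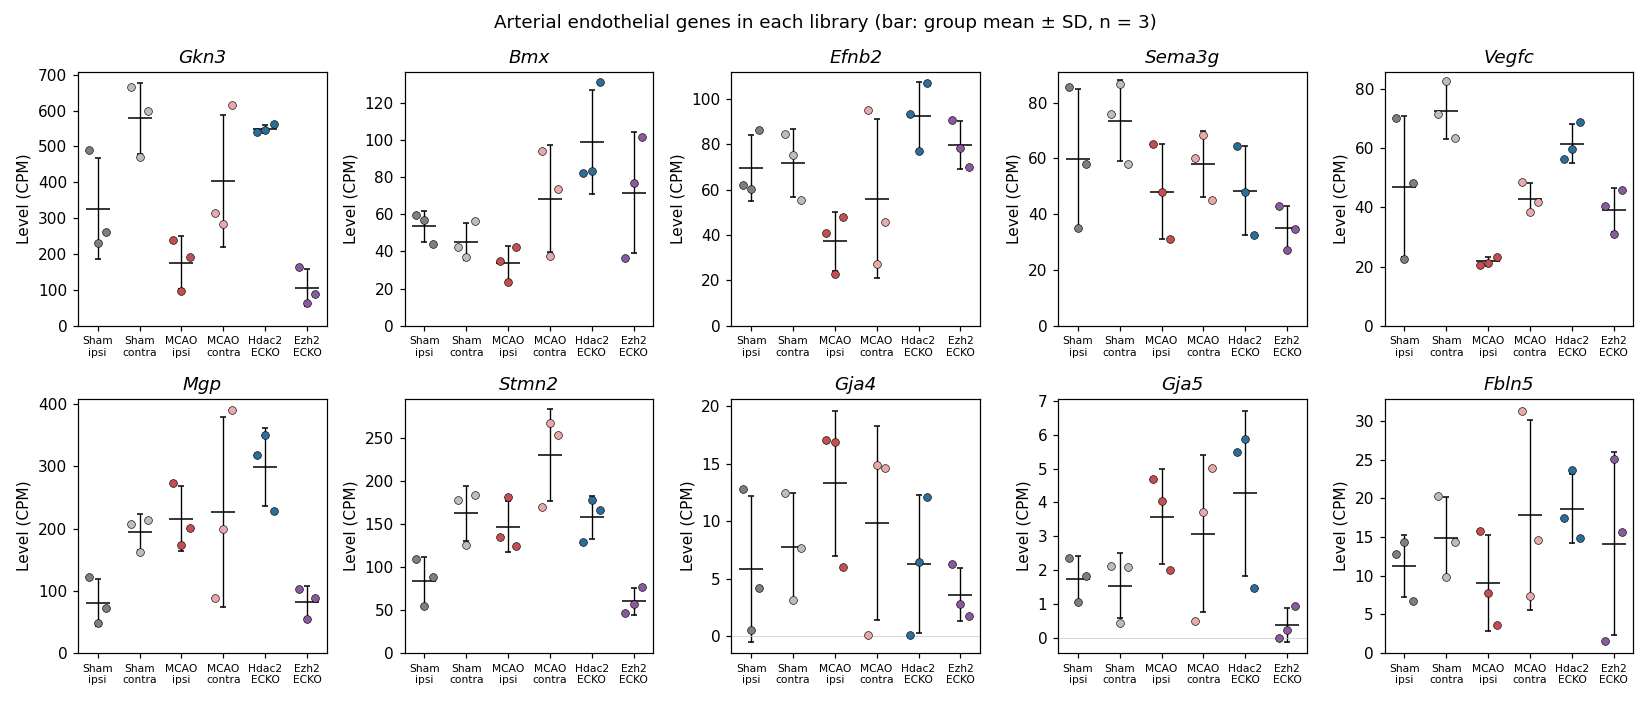
Level of each of the 10 arterial genes (CPM, linear axis) in every library of the 6 groups, with points for libraries and a bar for the group mean ± SD (n = 3). Gkn3 lies between 540.4 and 561 in the 3 libraries labelled Hdac2 ECKO and between 64.5 and 165 in those labelled Ezh2 ECKO.

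Gkn3 lies on chromosome 6 (87383256 to 87388935, minus strand, GRCm38, as do all gene coordinates here). In replicates 1, 2 and 3, its level was 489, 229.8 and 261 CPM in sham ipsilateral, and 665, 471 and 599 CPM in sham contralateral libraries. It was 240.0, 95.7 and 192 CPM in MCAO ipsilateral, and 314, 283 and 617 CPM in MCAO contralateral libraries. The libraries labelled Hdac2 ECKO gave 540.4, 545 and 561 CPM, and those labelled Ezh2 ECKO gave 165, 64.5 and 89.5 CPM. All 3 libraries labelled Hdac2 ECKO were above every MCAO ipsilateral library and every library labelled Ezh2 ECKO, while the MCAO and Ezh2 ECKO ranges overlapped. Gkn3 was higher under the Hdac2 ECKO label than under the Ezh2 ECKO label by a log2 value of 2.37 ± 0.43 (SE), with an adjusted p of 0.0296 from edgeR's quasi-likelihood test with Benjamini-Hochberg adjustment over all tested genes. This was the one call among the 10 genes in 9 comparisons. Without any 1 of the 3 Hdac2 ECKO libraries the adjusted p was 0.0718, 0.0866 and 0.0509 for replicates 1, 2 and 3, and without Ezh2 ECKO replicates 2 and 3 it was 0.102 and 0.151, so the call was lost in 5 of 6 cases, with log2 values from 2.10 to 2.34. Without Ezh2 ECKO replicate 1 it was 2.83, with an adjusted p of 0.0138.

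Bmx, on chromosome X (164192842 to 164258193, minus strand), encodes a non-receptor tyrosine kinase of the Tec family. Its level was 59.3, 57.0 and 44.0 CPM in sham ipsilateral, 35.0, 23.4 and 42.2 CPM in MCAO ipsilateral, and 82.2, 83.1 and 131 CPM in the libraries labelled Hdac2 ECKO. The sham contralateral libraries gave 42.5, 36.9 and 56.3 CPM, and the MCAO contralateral libraries 94.2, 37.5 and 73.4 CPM. In the libraries labelled Ezh2 ECKO it was 36.6, 76.9 and 101 CPM. The MCAO ipsilateral libraries lay below every sham ipsilateral library and below every library labelled Hdac2 ECKO, and they overlapped the Ezh2 ECKO range. The log2 fold change was −0.67 ± 0.40 for MCAO against sham, ipsilateral (adjusted p 0.750), 1.56 ± 0.41 for the Hdac2 ECKO label against MCAO (0.273) and 1.09 ± 0.41 for the Ezh2 ECKO label against MCAO (0.151).

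Efnb2, on chromosome 8 (8617434 to 8661242, minus strand), encodes ephrin-B2, the arterial ligand of EphB4. It stood at 61.8, 60.4 and 86.4 CPM in sham ipsilateral libraries and at 41.1, 22.8 and 47.8 CPM in MCAO ipsilateral libraries. The libraries labelled Hdac2 ECKO gave 93.5, 77.2 and 107 CPM, and 90.9, 78.4 and 69.9 CPM came from those labelled Ezh2 ECKO. The 3 MCAO ipsilateral libraries were thus the lowest of these 12, with no overlap with any of the other groups. The log2 fold change was −0.90 ± 0.40 against sham (adjusted p 0.667), 1.31 ± 0.40 for Hdac2 ECKO against MCAO (0.394) and 1.10 ± 0.40 for Ezh2 ECKO against MCAO (0.142). Contralateral levels were 84.7, 75.3 and 55.5 CPM in sham and 95.0, 27.1 and 45.9 CPM in MCAO libraries, which overlapped.

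Vegfc, also on chromosome 8 (54077606 to 54187096, plus strand), encodes a growth factor that acts through the receptor VEGFR3. It was at 70.1, 22.5 and 48.3 CPM in sham ipsilateral and at 71.7, 82.7 and 63.4 CPM in sham contralateral libraries. It was at 20.7, 21.1 and 23.3 CPM in MCAO ipsilateral, and at 48.5, 38.3 and 41.8 CPM in MCAO contralateral libraries. The libraries labelled Hdac2 ECKO gave 56.2, 59.8 and 68.7 CPM, and those labelled Ezh2 ECKO 40.4, 31.1 and 45.8 CPM. The MCAO ipsilateral libraries lay within 1 narrow range, below all libraries of every group except sham ipsilateral replicate 2. The log2 fold change was −1.11 ± 0.36 for MCAO against sham, ipsilateral (adjusted p 0.559), −0.76 ± 0.36 contralateral (0.920) and −0.94 ± 0.26 over both sides (0.162). It was 1.5 ± 0.37 for the Hdac2 ECKO label (0.247) and 0.85 ± 0.36 for the Ezh2 ECKO label (0.205) against MCAO.

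Sema3g, on chromosome 14 (31217860 to 31230352, plus strand), encodes a secreted semaphorin, a guidance cue. Its levels were 85.6, 35.0 and 58.1 CPM in sham ipsilateral, 65.2, 47.9 and 31.0 CPM in MCAO ipsilateral, 64.6, 48.1 and 32.5 CPM with the Hdac2 ECKO label, and 43.1, 27.1 and 34.6 CPM with that of Ezh2 ECKO. All 4 of these ranges overlapped. The sham contralateral (57.9 to 86.6) and MCAO contralateral (45.03 to 68.5) ranges overlapped each other, and both lay above the Ezh2 ECKO range. It had the smallest span of the 9 members detected in every library, 3.20-fold from the lowest to the highest.

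Mgp, on chromosome 6 (136872435 to 136875823, minus strand), encodes matrix Gla protein, an inhibitor of vessel calcification. Its level was 122, 48.9 and 71.9 CPM in sham ipsilateral, and 208, 162 and 213 CPM in sham contralateral libraries. It was 274, 173 and 201 CPM in MCAO ipsilateral, and 88.4, 200.05 and 391 CPM in MCAO contralateral libraries. With the Hdac2 ECKO label it was 319, 350.1 and 228 CPM, and with the Ezh2 ECKO label 103, 54.3 and 88.5 CPM. The sham ipsilateral and Ezh2 ECKO libraries were the low ones, at or under 122 CPM, with MCAO contralateral replicate 1 beside them. The log2 fold change was 1.42 ± 0.44 for MCAO against sham, ipsilateral (adjusted p 0.509), and −1.26 ± 0.43 for sham ipsilateral against sham contralateral (1.00). It was −1.40 ± 0.44 for Ezh2 ECKO against MCAO (0.0910) and 1.87 ± 0.44 for Hdac2 ECKO against Ezh2 ECKO (0.0964), and in each of these 4 comparisons the groups did not overlap.

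Fbln5, on chromosome 12 (101746565 to 101819055, minus strand), encodes fibulin-5, a protein of elastic fibres. Its libraries ranged from 6.69 to 14.3 CPM in sham ipsilateral, from 3.64 to 15.8 CPM in MCAO ipsilateral, from 14.9 to 23.6 CPM with the Hdac2 ECKO label and from 1.62 to 25.1 CPM with that of Ezh2 ECKO. The groups overlapped in every comparison, and no unadjusted p was under 0.05.

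Stmn2, on chromosome 3 (8509360 to 8561606, plus strand), encodes a stathmin that regulates microtubules and is best known from neurons. It was at 109, 54.4 and 88.3 CPM in sham ipsilateral, and at 178, 126 and 184 CPM in sham contralateral libraries. It was at 135, 181 and 125 CPM in MCAO ipsilateral, and at 169.7, 268 and 254 CPM in MCAO contralateral libraries. With the Hdac2 ECKO label it was at 129, 178 and 167 CPM, and with the Ezh2 ECKO label at 46.4, 57.1 and 77.05 CPM. As with Mgp, the sham ipsilateral and Ezh2 ECKO libraries were low, and every MCAO ipsilateral library lay above all of them. The log2 fold change was 0.81 ± 0.32 for MCAO against sham, ipsilateral (adjusted p 0.645), −1.29 ± 0.33 for Ezh2 ECKO against MCAO (0.050, just above the threshold of 0.05) and 1.39 ± 0.33 for Hdac2 ECKO against Ezh2 ECKO (0.0964). For sham ipsilateral against sham contralateral it was −0.95 ± 0.33 (1.00).

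Because Stmn2 is also a neuronal gene, its level was set beside 10 neuronal markers, which together summed to 1.43 to 22.7 CPM. Stmn2 alone was 5.50 to 61.8 times that sum, with a median of 19.4. The medians of the 10 markers ran from 0.110 CPM (Slc17a7) to 1.41 CPM (Map2), with 0.126 for Rbfox3, 0.372 for Snap25 and 0.323 for Syt1. Some moved beside Stmn2 all the same, and others moved the other way. Nefl, a neurofilament gene, stood at 8.89 CPM in MCAO ipsilateral and 0.139 CPM in sham ipsilateral libraries on average (unadjusted p 0.00830, adjusted p 0.579, with overlap). Stmn3, another stathmin, averaged 1.06 CPM in MCAO ipsilateral libraries and was at 0 in all 3 libraries labelled Ezh2 ECKO (adjusted p 0.050). In MCAO against sham, ipsilateral, Snap25 (log2 fold change −2.18 ± 1.46), Map2 (−1.89 ± 1.19), Gad2, Syt1, Gad1 and Rbfox3 were lower. Tubb3 was higher there, as were Nefl and Stmn3. In Ezh2 ECKO against MCAO, Syt1 (2.99 ± 1.52), Snap25 (2.58 ± 1.48), Gad2, Map2 and Rbfox3 were higher. Gad1, Nefl, Stmn3 and Tubb3 were lower there. The neuronal sums were 5.51 to 6.74 CPM in sham ipsilateral, 2.42 to 22.7 CPM in MCAO ipsilateral, 3.17 to 6.82 CPM for Hdac2 ECKO and 1.43 to 9.81 CPM for Ezh2 ECKO libraries. Mgp was likewise 4.10 to 240.1 times the sum of 8 fibroblast markers (1.51 to 18.0 CPM). The medians of these 8 ran from 0.0631 CPM (Lum) to 1.78 CPM (Pdgfra, highest library 14.6). Col3a1 averaged 4.93 CPM in MCAO ipsilateral and 1.70 CPM in sham ipsilateral libraries, with overlap. In that comparison Col1a1 (log2 fold change 2.23 ± 1.32) and Slc6a13 (3.52 ± 1.60) were higher without overlap. Lum, Dcn and Pdgfra (0.09 ± 1.34) were higher with overlap, while Col1a2 (−0.47 ± 1.17) and Lama1 (−0.55 ± 1.60) were lower. The 14 smooth muscle and pericyte markers summed to 24.3 to 241 CPM and were not at 0. Mgp was 0.369 to 14.4 times and Gkn3 0.507 to 22.4 times that sum, which was 126 to 195 CPM in sham ipsilateral, 45.8 to 118 CPM in MCAO ipsilateral, 24.3 to 98.2 CPM with the Hdac2 ECKO label and 45.4 to 177 CPM with that of Ezh2 ECKO. The part of these cells in the member levels was not tested.

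**Figure D2:**
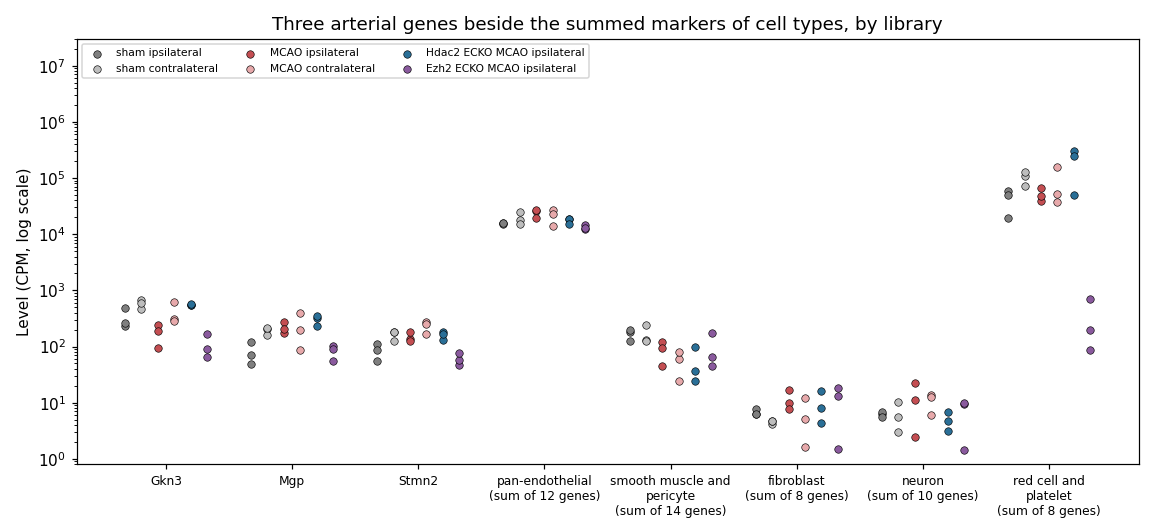
Gkn3, Mgp and Stmn2 beside the summed level of marker lists for 5 kinds of cell (CPM, log axis), with 1 point per library coloured by group. The neuronal sums, 1.43 to 22.7, lie below every Stmn2 point, and the red cell and platelet sums are lowest in the 3 libraries labelled Ezh2 ECKO.

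The connexins Gja4 (connexin 37) and Gja5 (connexin 40) form gap junctions between arterial endothelial cells. Gja4 lies on chromosome 4 (127311421 to 127314039, minus strand) and gave 12.8, 0.572 and 4.17 CPM in sham ipsilateral, 17.0, 16.9 and 6.03 CPM in MCAO ipsilateral, 0.132, 6.50 and 12.1 CPM under Hdac2 ECKO and 6.26, 2.85 and 1.79 CPM under Ezh2 ECKO labels. Contralateral levels were 12.5, 3.16 and 7.68 CPM in sham and 0.126, 14.9 and 14.6 CPM in MCAO libraries. Gja4 varied 135-fold between libraries, with only 4 counts in MCAO contralateral replicate 1 and 4 in Hdac2 ECKO replicate 1, and no comparison had an unadjusted p under 0.05 or groups without overlap. Gja5 lies on chromosome 3 (96904693 to 97077416, plus strand) and gave 2.37, 1.07 and 1.82 CPM in sham ipsilateral, 4.70, 4.04 and 2.01 CPM in MCAO ipsilateral, 5.49, 5.87 and 1.47 CPM under Hdac2 ECKO and 0, 0.228 and 0.950 CPM under Ezh2 ECKO labels. The 0 allows a level of up to 0.0809 CPM, which is 3 counts in that library, a limit for counting error only. Most small counts in the table are even, a pattern that counting each mate of a pair would give, and 3 pairs would then give a higher limit. The 3 libraries labelled Ezh2 ECKO were below all libraries of MCAO ipsilateral and Hdac2 ECKO, with log2 differences of −3.18 ± 1.22 for Ezh2 ECKO against MCAO (adjusted p 0.164) and 3.43 ± 1.24 for Hdac2 ECKO against Ezh2 ECKO (0.295). Of its 5746 exon bases, 165 are shared with Gpr89 on the opposite strand, and the strand setting of the counting is not given in the sources used here, so its low levels are uncertain.

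On the ipsilateral side, the comparison of MCAO with sham asks what occlusion does to arterial genes. A total of 6 members had a lower and 4 a higher mean log2 level after MCAO, with 0 of 10 called, as in 0% of all tested genes with edgeR. DESeq2 and limma-voom also called 0 members. An unadjusted p under 0.05 was found for 5 members, Gkn3, Efnb2 and Vegfc lower, and Mgp and Stmn2 higher, against 7.08% of all genes. Groups did not overlap for 4 members (Bmx and Efnb2 lower, Mgp and Stmn2 higher), against 27.7% of all genes. The median log2 fold change was −0.31 for the members and −0.09 for all genes. Gkn3 stood at −0.89 ± 0.41 here (adjusted p 0.685).

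On the contralateral side, MCAO against sham gave 6 higher and 4 lower members, and 0 called against 0% of all genes (also 0 by DESeq2 and limma-voom). Vegfc, lower without overlap, was the one member with an unadjusted p under 0.05, where the shares of all genes were 4.41% for the p and 6.00% for a lower level without overlap. The median was 0.24 for the members and 0.17 for all genes. Over both sides together 0 members were called, against 0.152% of all genes. Unadjusted p-values were under 0.05 for 5 members, against 9.09%: Gkn3 (−0.70 ± 0.29, adjusted p 0.432), Efnb2 (−0.63 ± 0.28, 0.497) and Vegfc lower, and Mgp (0.82 ± 0.30, 0.358) and Stmn2 (0.66 ± 0.23, 0.306) higher. DESeq2 called Vegfc (adjusted p 0.0378), with its share of all genes not given here, and limma-voom called 0 members. Without MCAO contralateral replicate 1, Mgp had a log2 value of 1.03 and an adjusted p of 0.0467.

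Between the sides after MCAO, 8 of 10 members were lower on the ipsilateral side, with a median of −0.62 against −0.05 for all genes. None was called, against 0% of all genes (0 members by DESeq2 and limma-voom too). Gkn3 (−1.20 ± 0.41), Bmx (−1.03 ± 0.41) and Vegfc (−0.98 ± 0.36) had an unadjusted p under 0.05, against 3.08% of all genes, each with an adjusted p of 1. The ipsilateral libraries of Gkn3 and Vegfc lay below all contralateral ones, as for 1.88% of all genes. In sham mice 8 of 10 members were again lower on the ipsilateral side (median −0.40, all genes 0.07), and 0 were called, against 0% (0 by DESeq2 and limma-voom). Mgp and Stmn2 had both an unadjusted p under 0.05 and no overlap, against 1.85% and 6.98% of all genes. These counts rested in part on single libraries, with 4 of 10 members higher in sham ipsilateral without sham ipsilateral replicate 2 or without sham contralateral replicate 1. Red cell markers stood with them: all 4 globin genes of the list (from Hba-a1 at −1.18 to Hbb-bt at −1.48 on the log2 scale) were lower without overlap in sham ipsilateral libraries (adjusted p 1.00 each), where the list summed to 19244 to 59020 CPM against 72063 to 129622 CPM contralaterally, and their part in the member values was not tested. The difference between the ipsilateral and contralateral effects of occlusion was called for 0 members, against 0% of all genes (0 by DESeq2 and limma-voom), and Bmx alone had an unadjusted p under 0.05 (−1.27 ± 0.57, adjusted p 0.941), against 3.38%.

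Libraries labelled Hdac2 ECKO were compared with MCAO ipsilateral libraries to ask how the levels differ with this label after occlusion. A total of 9 of 10 members were higher, with a median of 0.75 against 0.11 for all genes, and the exception was Gja4. With edgeR 0 members were called, against 0.0117% of all genes, and with limma-voom 0, while DESeq2 called Gkn3 (adjusted p 0.00750), Bmx (0.0377) and Vegfc (0.00384). That share is edgeR's, and the share of all genes that DESeq2 called is not given here. Gkn3 (1.64 ± 0.42, adjusted p 0.273 with edgeR), Bmx, Efnb2 and Vegfc had an unadjusted p under 0.05, against 9.85% of all genes. The same 4 lay above MCAO without overlap, against 9.54% of all genes. The globin genes had higher means as well, by log2 1.88 (Hbb-bs) to 2.11 (Hba-a2), with overlap and adjusted p from 0.394 to 0.473. The red cell and platelet sum was 38305 to 65480 CPM in MCAO ipsilateral libraries and 49302 to 297930 CPM here, and its part in the member values was not tested. The MCAO ipsilateral libraries also serve as the group tested against sham, so a low MCAO level enters both comparisons with opposite sign. The count of higher members was 6 without Hdac2 ECKO replicate 2 or without MCAO ipsilateral replicate 3.

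Libraries labelled Ezh2 ECKO were compared with the same MCAO ipsilateral libraries, which both comparisons share. Efnb2 and Vegfc were higher without overlap and Bmx higher with overlap, while Mgp, Stmn2 and Gja5 were lower without overlap, and these 6 had an unadjusted p under 0.05, against 19.2% of all genes. For the absence of overlap, 5 of 10 members compare with 29.0% of all genes. With edgeR 0 members were called, against 1.46% of all genes, and with limma-voom 0. DESeq2 called 5 members, Bmx (adjusted p 0.0495) and Vegfc (0.0444) higher, and Mgp (0.0378), Stmn2 (0.0177) and Gja5 (0.0265) lower. The 1.46% is edgeR's share and is no measure for these 5, as DESeq2's share of all genes is not given here. The median was −0.59 for the members and 0.17 for all genes.

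Set directly against each other, the libraries labelled Hdac2 ECKO had a higher mean log2 level than those labelled Ezh2 ECKO for all 10 members, from 0.22 for Efnb2 to 3.43 for Gja5. The median was 0.72, against −0.15 for all genes. The count was 9 by limma-voom, and 9 without Hdac2 ECKO replicate 3 or Ezh2 ECKO replicate 1. The call of Gkn3 with edgeR, 1 of 10 members, compares with 0.123% of all genes. Shares of all genes for the other methods are not given here. Limma-voom called Gkn3 alone, while DESeq2 called Gkn3, Mgp, Stmn2 and Gja5. Unadjusted p-values were under 0.05 for these same 4 genes with edgeR, against 11.2% of all genes. Those 4 and Vegfc (0.66 ± 0.36, adjusted p 0.524) lay higher without overlap, against 6.87% of all genes. Red cell and platelet markers differed between these groups in the same direction as Gkn3, with sums over 8 genes of 49302 to 297930 CPM for Hdac2 ECKO libraries and 87.2 to 700.4 CPM for Ezh2 ECKO libraries. The receptor sums were 198 to 637 CPM and 268 to 2077 CPM. The part of either in the member differences was not tested beyond the receptor sum as a covariate, with which Gkn3 stood at 2.23 (adjusted p 0.0134) and Mgp at 1.45 (0.0431).

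**Figure D3:**
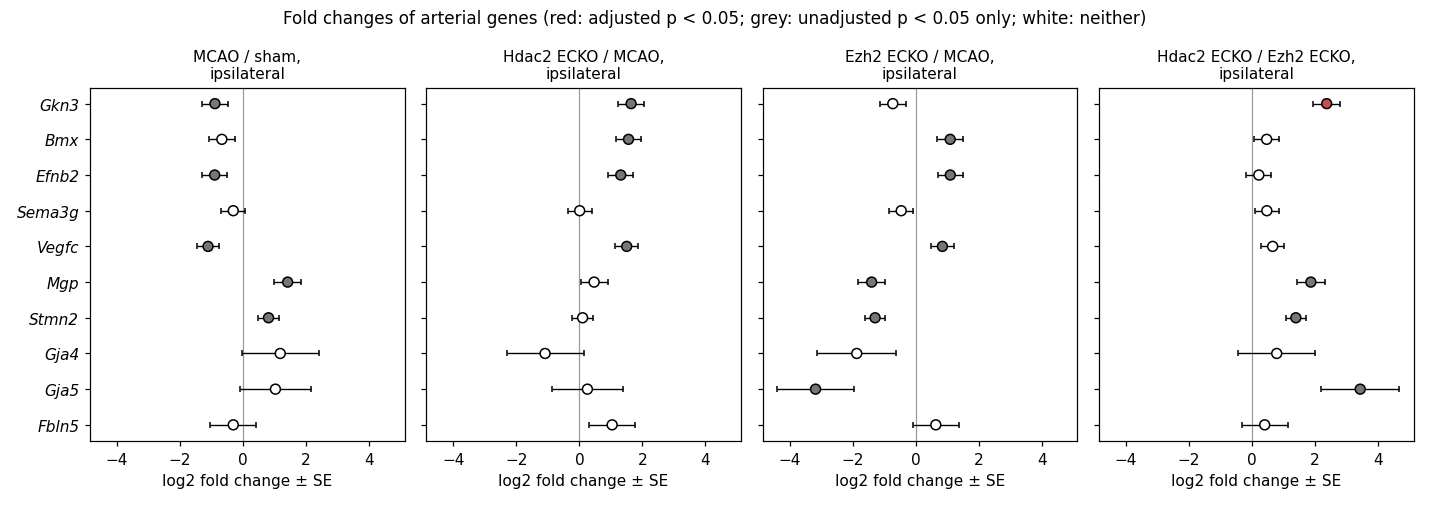
Log2 fold change ± SE of the 10 members in 4 ipsilateral comparisons, with red for an adjusted p under 0.05, grey for an unadjusted p under 0.05 only and white for neither. Gkn3 at 2.37 in Hdac2 ECKO against Ezh2 ECKO is the red point. The MCAO ipsilateral libraries are shared by the first 3 panels.

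A list of 20 other arterial genes, among them the Notch ligands and targets Dll4, Jag1, Hey1 and Hey2 and the transcription factor Sox17, was read the same way. With edgeR 0 of the 20 were called in any of the 9 comparisons. In MCAO against sham, ipsilateral, 15 of 20 were lower (median −0.15, all genes −0.09). Nrp1 (a VEGF co-receptor, −0.96 ± 0.39) and Tgfb2 (a TGF-beta ligand, −1.31 ± 0.61) had an unadjusted p under 0.05, against 7.08% of all genes. In Hdac2 ECKO against MCAO 15 of 20 were higher (median 0.44, all genes 0.11). Hey1 (0.97 ± 0.33), Mecom (0.92 ± 0.34), Tgfb2 (1.54 ± 0.61) and Eln (1.42 ± 0.61) had an unadjusted p under 0.05, against 9.85% of all genes. Mean levels were lower under this label for Sox17 (192 against 242 CPM), Notch1 (86.4 against 101), Ltbp4 (171 against 200), Notch4 (43.6 against 50.4) and Clu (35.2 against 36.3). In Ezh2 ECKO against MCAO 10 of 20 were higher and 10 lower (median 0.08, all genes 0.17), while 13 of 20 were higher for Hdac2 ECKO over Ezh2 ECKO (median 0.37, all genes −0.15). The single genes in this paragraph were chosen after their values were seen.

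The lists for other vessels and cell types held few calls, and the smooth muscle and pericyte, fibroblast, neuron, astrocyte, and microglia and macrophage lists held 0. In Ezh2 ECKO against MCAO, Tmem252 of 12 venous markers fell (−2.49 ± 0.63, adjusted p 0.0485), Hmcn1 of 10 capillary markers rose (1.44 ± 0.31, 0.0291) and Ly6c1 of 12 pan-endothelial markers fell (−2.03 ± 0.42, 0.0291). In the same comparison 5 of 8 red cell and platelet markers fell, led by the globin genes Hba-a1 (−7.15 ± 0.88, 0.000525), Hba-a2 (−7.22 ± 0.86, 0.000525) and Hbb-bs (−7.67 ± 1.02, 0.00115). Hba-a1 and Hba-a2 are so alike that reads may be split between them. Gpr17 of 8 oligodendrocyte lineage markers also fell (−7.79 ± 1.62, 0.0291). In Hdac2 ECKO over Ezh2 ECKO libraries Hba-a1, Hba-a2 and Hbb-bs were higher by 9.14 ± 0.96, 9.34 ± 0.94 and 9.54 ± 1.10 (adjusted p from 3.4e-05 to 0.000114). Over both sides, Lrg1 of the venous list rose after MCAO (6.99 ± 1.33, 0.0314). Summed venous markers stood at 991 to 2194 CPM in MCAO ipsilateral and 737 to 918 CPM in sham ipsilateral libraries.

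Over the 18 libraries, 33 of the 45 pairs of members had a positive Pearson correlation of log2 levels, with a median of 0.25. The libraries share depth and background, so these values are descriptions. The highest were Mgp with Stmn2 (0.76), Stmn2 with Gja5 (0.69), Gkn3 with Vegfc (0.67), and Bmx with Efnb2 and Gkn3 with Mgp (0.61 each). With group means removed, these were 0.50, 0.68, 0.40, 0.42 and 0.75. The lowest was Efnb2 with Gja4, at −0.49. Bmx and Efnb2 thus varied apart from Mgp, Stmn2 and Gja4, with correlations to these from −0.49 to −0.02. Against the summed lists, Mgp stood at 0.89, Gkn3 at 0.76 and Stmn2 at 0.70 with the other arterial genes, but Tm4sf1 alone made 47.5% to 68.6% of that sum. Without Tm4sf1, a check added after the values were seen, the correlation was 0.08 for Mgp, 0.43 for Gkn3 and −0.16 for Stmn2, while it was 0.73 for Vegfc, 0.70 for Efnb2 and 0.53 for Bmx. Mgp also stood at 0.69 with the venous, 0.66 with the pan-endothelial and 0.66 with the microglia and macrophage sums. With the red cell and platelet sum Gkn3 stood at 0.77, Stmn2 at 0.73 and Mgp at 0.64. Efnb2 stood at −0.79 with the pan-endothelial list, and Mgp at −0.70 with the receptor sum. The 5 genes whose levels were most like the members' mean over the 18 libraries were Rsph3b (0.87), Mast1 (0.86), Prune2 (0.75), Alpl (0.74) and Abcg3 (0.74), where the median over genes was −0.03.

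**Figure D4:**
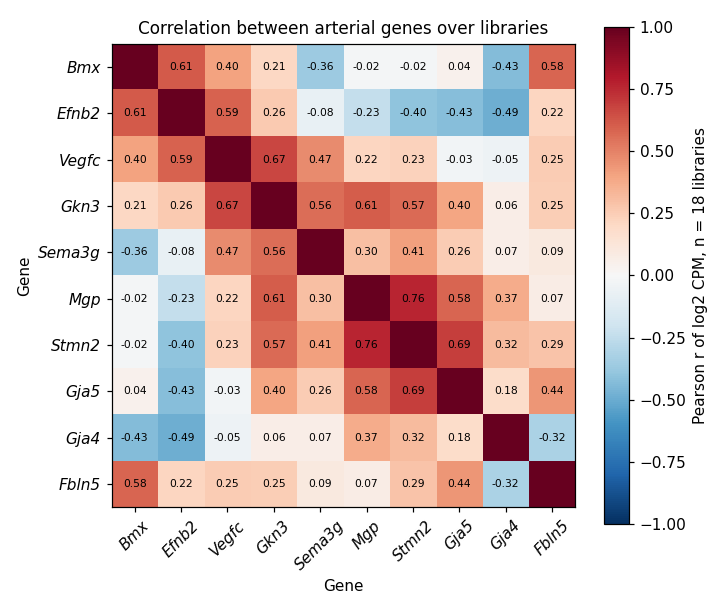
Pearson correlation of log2 CPM between the members over 18 libraries, on a colour scale from −1 (blue) to 1 (red). Mgp, Stmn2 and Gja5 form a block of positive values from 0.58 to 0.76, and Efnb2 with Gja4 is the lowest value at −0.49.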

How the data were processed

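The data were deposited by the authors as counts per gene for 18 libraries. The table's name calls them normalized, but its values are whole numbers with unlike totals, and 77.3% to 89.4% of counts from 1 to 20 were even, a pattern that counting each mate of a pair would give, so they were used as unscaled counts. Per the submitters' processing notes, the tools were FastQC, cutadapt, STAR, featureCounts and DESeq2, with build mm10. Versions and the strand setting are not given in the sources used here.

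The 17094 genes that reached a count of 10 in 3 or more libraries were tested with edgeR 4.0.16 in R 4.3.3 (quasi-likelihood F-test, TMM factors, 1 fit of 6 group means). A gene was called at a Benjamini-Hochberg adjusted p under 0.05 over all tested genes. The SE is the log2 fold change divided by the square root of F. The fit was tested on simulated data. Alternatives used DESeq2 1.42.0, limma 3.58.1 (voom), RLE scaling, no filter, the compared groups only, halved counts, a background covariate, a replicate block and each library left out.

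All 10 members are named. A fold change and its test are printed where the unadjusted p was under 0.05 or the groups did not overlap. Called genes of other lists are named, up to 3 per list by adjusted p, as are Hdac2, Ezh2 and the 5 genes most like the members' mean. The members and lists were chosen with earlier results of these data known.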

Additional observations from a re-analysis of the deposited data

Results flagged for a closer look

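Gkn3 differed between libraries with the Hdac2 ECKO label and libraries with the Ezh2 ECKO label, both ipsilateral after MCAO, by a log2 value of 2.37, and was flagged because this direct test of the 2 labels passed the threshold. It was higher in 3 of 3 libraries labelled Hdac2 ECKO than in any labelled Ezh2 ECKO.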

How the results depend on the processing

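Of 138 counts of called members under the alternatives, 126 stayed the same and 12 moved. Among counts of members with a positive log2 fold change, 9 moved by more than a set margin and 129 did not. Single log2 fold changes were followed only where the main fit gave an unadjusted p under 0.05 or no overlap. None of those reversed, but this choice made a reversal unlikely from the start. DESeq2 called 3 members in Hdac2 ECKO against MCAO, 5 in Ezh2 ECKO against MCAO, 4 in Hdac2 ECKO against Ezh2 ECKO and 1 over both sides, where edgeR called 0, 0, 1 and 0. DESeq2's shares of all genes are not given here, so its counts cannot be set against edgeR's shares. Halved counts gave 1 call in Ezh2 ECKO against MCAO (Stmn2, adjusted p 0.0472), and the background covariate gave 2 in Hdac2 ECKO against Ezh2 ECKO. With each library left out, the count ranged from 0 to 1 in Hdac2 ECKO against Ezh2 ECKO and from 0 to 1 over both sides. Over all settings the adjusted p of Gkn3 in Hdac2 ECKO against Ezh2 ECKO ran from 1.5e-05 to 0.151. The cause of these differences was not tested.

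Same-numbered libraries did not deviate together in every comparison. With deviations from means of 3 libraries, this cannot show whether they came from the same mouse, and the numbers are used here only as names. With a replicate block, 1 member was called in Hdac2 ECKO against Ezh2 ECKO (Gkn3, adjusted p 0.00784) and 0 in the other comparisons, while genes called in Ezh2 ECKO against MCAO went from 250 to 12. RLE scaling moved the median of all genes in Ezh2 ECKO against MCAO from 0.17 to 0.36, in Hdac2 ECKO against Ezh2 ECKO from −0.15 to −0.26, between the sides after MCAO from −0.05 to −0.21, in MCAO against sham, contralateral, from 0.17 to 0.30, and for the difference between the sides' effects from −0.08 to −0.27. Depth limits Gja4 and Gja5 most, with 4 counts or fewer in some libraries. With RLE, 3 members rather than 5 had a positive difference between the sides' occlusion effects. By length of the gene span in place of its exons, Gkn3, Mgp, Fbln5 and Gja5 kept ranks 1, 2, 9 and 10, and the other 6 changed rank.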
